A study of Mus musculus with 10 samples.

Results

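Deletion of Evi, the gene now named Wls, from the endothelial cells of neonatal lung was examined on 5 Illumina mouse beadchip arrays of the 10 in the series: 2 arrays labelled Evi-iECKO and 3 labelled Evi-WT. Each array measured RNA of endothelial cells, the inner lining of vessels, which had been isolated by FACS from the lungs of C57/Bl6 pups on postnatal day 6. Both groups carried floxed Evi alleles (Evifl/fl). Evi-iECKO also carried Cdh5CreERT2, an inducible Cre recombinase under the promoter of the endothelial cadherin gene Cdh5, and Evi-WT had no Cre. No group carried Cre without floxed alleles, so an effect of Cre itself cannot be told apart from that of the deletion. The induction schedule and the markers used for sorting were not stated. The labels do not say whether samples came from separate animals. Xist, below, was high on 1 Evi-iECKO array and low on the other, and high on 1 of the 3 Evi-WT arrays. The arrays therefore did not all share 1 source, but the p-values may still describe spread that is in part technical. The other 5 arrays, of an Rspo3 line built the same way (3 Rspo3-iECKO, 2 Rspo3-WT), served as a side comparison.

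Wls is a membrane protein that carries lipid-modified Wnt ligands from the Golgi to the cell surface, and cells without it release little Wnt protein; the retromer complex returns it from endosomes for another round. Porcn attaches the lipid in the endoplasmic reticulum, and Notum removes it outside the cell. Secreted Wnts act on Frizzled receptors and their co-receptors in the same or neighbouring cells, through beta-catenin or through planar polarity and calcium branches.

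For each gene the brightest probe detected on at least 2 of the 5 arrays was used, which gave 14084 genes. Values are normalized intensities on the log2 scale, and differences are Evi-iECKO minus Evi-WT on that scale. A shift was called agreeing when both Evi-iECKO arrays lay beyond all 3 Evi-WT arrays on the same side and each lay at least 1.5-fold from the Evi-WT mean. It was called driven by 1 array when the group means differed at least 1.5-fold and exactly 1 Evi-iECKO array met those conditions. The weaker array of Letmd1, just inside the rule, deviated by 0.59 and that of Antkmt, just outside, by 0.58; on the lower side Rnf167 at -0.59 was inside and 1700084E18Rik at -0.58 outside. On the 5 arrays 46.5% to 48.6% of probes were detected and the median intensity was 89.6 to 107, lowest on Evi-iECKO 1. The number of arrays limited the precision, with a median standard error of 0.23.

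Ifit3, an interferon-induced antiviral gene, was the single gene that changed at a Benjamini-Hochberg adjusted p below 0.05 (limma; 0.0071% of 14084 genes), and it rose. By the agreement rule, 86 genes lay higher (0.611%) and 70 lower (0.497%) in Evi-iECKO. The interferon-stimulated genes Ifit3 and Usp18 had the smallest p-values of the higher group, and Wls that of the lower group. At an unadjusted p below 0.05, 367 genes were higher (2.61%) and 318 lower (2.26%). Both directions together were no more than the share that such a threshold passes with no difference between groups. At any fold, both Evi-iECKO arrays lay above all 3 Evi-WT arrays for 1519 of the 14084 genes. For 1307 genes both lay below all 3, so a lack of overlap alone was common. The Evi-iECKO arrays were the least alike pair of the 5 arrays, with a Pearson's r of 0.931 across genes against 0.938 to 0.964 for the other pairs. They deviated from the Evi-WT mean in opposite directions for 6747 genes, and 318 genes had a shift driven by 1 array. Without background correction the agreeing shifts numbered 4 higher and 0 lower, and with the authors' normalized values 7 and 2. The number of genes past the adjusted threshold was 31 without Evi-iECKO 1, 5 without Evi-iECKO 2 and 0 without any 1 of the Evi-WT arrays.

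**Figure D1:**
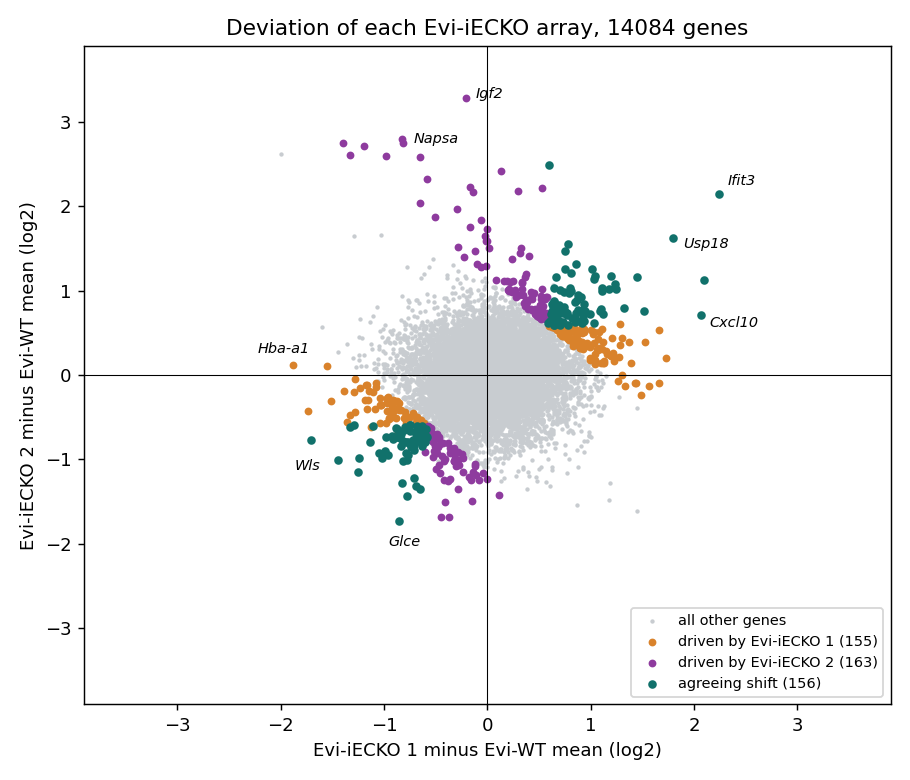
Each point is 1 of 14084 genes, placed by its log2 deviation from the Evi-WT mean on Evi-iECKO 1 (horizontal) and Evi-iECKO 2 (vertical). Green points are the 156 agreeing shifts, orange the 155 driven by Evi-iECKO 1 and purple the 163 driven by Evi-iECKO 2; Ifit3 and Usp18 stand far along the upper diagonal, and Igf2 and Napsa are high on Evi-iECKO 2 only.

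The deleted gene itself was lower on both Evi-iECKO arrays. Wls read 5.62, 6.04 and 5.56 on the Evi-WT arrays, and 4.29 and 4.74 on the Evi-iECKO arrays. The groups did not overlap, and the probe was detected on all 3 Evi-WT arrays but on 1 of the 2 Evi-iECKO arrays. The difference of group means was -1.22 (SE 0.24, n = 2 against 3), and did not pass adjustment over all genes (limma, adjusted p = 0.757). A second detected Wls probe differed by -0.93. Which exons were floxed is not known here, so whether these probes lie in them is unknown and they do not measure the efficiency of deletion. Cdh5, whose promoter drives the Cre, read 8.89, 9.25 and 8.83 in Evi-WT, and 8.50 and 9.37 in Evi-iECKO. Its groups overlapped, with a difference of -0.06 (SE 0.28).

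Endothelial markers differed little between the group means. Of 16 pan-endothelial marker genes, all measured, 9 had a positive and 7 a negative difference, with a median of 0.02 beside 0.01 for all genes and no agreeing shift. The 2 Evi-iECKO arrays deviated in opposite directions for 12 of the 16 (75%), beside 47.9% of all genes. The shift of 1 marker was driven lower by Evi-iECKO 2, and the lowest difference was -0.59. Xist, the RNA of the inactive X chromosome, was high on Evi-WT 1 (8.32) and Evi-iECKO 2 (8.55) and read 4.61 to 4.87 on the other 3 arrays. Its 3 other detected probes split the arrays the same way, 1 of them at 9.04 and 8.82 against 4.13 to 4.36. The Y-linked Eif2s3y showed the reverse order, with 4.21 and 4.11 on Evi-WT 1 and Evi-iECKO 2 and 6.39 to 7.18 on the others. A second Eif2s3y probe was less clear, at 4.82, 5.38 and 5.88 in Evi-WT, and 4.87 and 4.32 in Evi-iECKO. On that probe Evi-iECKO 1 lay near Evi-WT 1. The 2 Evi-iECKO arrays thus differed in sex-linked genes, and the part of sex in the shifts driven by 1 array was not tested. With Xist level as a factor, an alternative chosen after seeing the data, Wls differed by -1.24 and Ifit3 by 2.21, and no gene passed (limma, smallest adjusted p 0.109).

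Interferon-stimulated genes are antiviral genes switched on when interferons bind their receptors. Of the interferon response list, 27 of 36 genes were measured and 26 had a positive difference, with a median of 0.43 beside 0.01 for all genes. Both Evi-iECKO arrays lay above the Evi-WT mean for 21 of the 27 (77.8%), beside 26.9% of all genes, and 7 met the agreement rule (25.9%, beside 0.611% of all genes): Ifit3, Usp18, Oasl2, Stat2, Cxcl10, Xaf1 and Ifit2. The list was chosen with earlier results of these data known and is not independent evidence of its direction. The mean over its genes, relative to Evi-WT, was 0.66 on Evi-iECKO 1 and 0.49 on Evi-iECKO 2, against -0.14 to 0.10 on the Evi-WT arrays. Its median was positive, at 0.17 to 0.57, under each of the other processings for which it was computed and with each array left out.

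Ifit3 read 5.83, 5.53 and 6.17 in Evi-WT, and 8.09 and 7.99 in Evi-iECKO. Both deleted arrays stood far above all 3 controls and close to each other. The rise was 2.20 (SE 0.23), or 4.59-fold, with an adjusted p of 0.0306 (limma). Leaving out any 1 of the Evi-WT arrays kept the difference between 2.04 and 2.36 but raised the adjusted p (limma) to between 0.0687 and 0.394, and fitting all 10 arrays together gave 2.24 with an adjusted p of 0.200. Whether its probe also reads the close copy Ifit3b was not tested.

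Usp18 removes the ubiquitin-like protein Isg15 from its targets and damps interferon receptor signalling. It read 5.47, 5.19 and 5.77 in Evi-WT, and 7.27 and 7.11 in Evi-iECKO. The groups were well apart, with a difference of 1.71 (SE 0.23; limma, adjusted p = 0.124), and a second probe differed by 1.33. Oasl2, an oligoadenylate synthetase-like antiviral protein, read 7.51, 6.92 and 7.04 against 8.39 and 8.24, a difference of 1.16 (SE 0.23). Its second probe differed by 1.57. Stat2, a transcription factor that acts downstream of type I interferon receptors, read 6.35, 6.25 and 6.49 against 7.16 and 7.40. The difference was 0.92 (SE 0.21), and neither group spread as far as the gap between them.

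The remaining 3 agreeing members of the list were less even. Cxcl10, a chemokine that attracts T cells, read 4.49, 4.70 and 4.30 in Evi-WT, and 6.56 and 5.21 in Evi-iECKO. It was detected on both Evi-iECKO arrays, and its higher value on Evi-iECKO 1 carried most of the difference of 1.39 (SE 0.34). Xaf1, a pro-apoptotic interferon target, read 5.91, 5.62 and 6.45 against 6.75 and 7.47, and here Evi-iECKO 2 was the higher array (difference 1.11, SE 0.30). Ifit2, a relative of Ifit3, read 5.46, 5.03 and 4.37 against 5.87 and 5.89, so that the deleted arrays were nearly equal while the controls spread (0.92, SE 0.29). Igtp met the fold on Evi-iECKO 1 alone and Gbp2 on Evi-iECKO 2 alone, both interferon-induced GTPases. The other 18 differed by -0.09 to 0.55, with Trim25 the single negative value.

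Further genes of interferon-induced immunity stood outside that list. Nlrc5, which switches on MHC class I genes, read 6.04, 5.24 and 5.45 in Evi-WT, and 7.68 and 6.70 in Evi-iECKO, a difference of 1.61 (SE 0.32). Both deleted arrays exceeded all controls, Evi-iECKO 1 by more. Sp100, a nuclear body protein, read 5.74, 5.44 and 5.82 against 6.47 and 6.87, a difference of 1.0 (SE 0.23), and its 2 other detected probes differed by 0.27 and 0.29. Among agreeing genes named after their values were seen, the guanylate-binding proteins Gbp5 and Gbp10 differed by 1.07 and 1.0, the transcription factor Batf2 by 1.18 and the RNA-activated kinase Eif2ak2 by 0.65. On the MHC class I presentation list 12 of 16 measured genes had a positive difference (median 0.17), Nlrc5 being the single agreeing one. The list's mean was 0.29 and 0.22 on the deleted arrays but also 0.25 on Evi-WT 1, so the groups overlapped, and its median was 0.03 without Evi-WT 2 and 0.38 without Evi-WT 1.

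The promoters of 3 agreeing interferon-induced genes are shown because they hold the letters GAAANNGAAA, the core of the interferon-stimulated response element, or its reverse complement TTTCNNTTTC. Each sequence runs 5′ to 3′ on the gene's strand from 250 bases before to 50 bases after the gene's start in RefSeq (GRCm38.p6), with the match in capitals.
Ifit3, chr19:34583279-34583578, plus strand: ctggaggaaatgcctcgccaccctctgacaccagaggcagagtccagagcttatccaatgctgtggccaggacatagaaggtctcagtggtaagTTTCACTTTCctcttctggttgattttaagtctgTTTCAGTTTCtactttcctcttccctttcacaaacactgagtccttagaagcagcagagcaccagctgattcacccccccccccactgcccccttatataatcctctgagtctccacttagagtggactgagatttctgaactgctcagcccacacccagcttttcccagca
Stat2, chr10:128270248-128270547, plus strand: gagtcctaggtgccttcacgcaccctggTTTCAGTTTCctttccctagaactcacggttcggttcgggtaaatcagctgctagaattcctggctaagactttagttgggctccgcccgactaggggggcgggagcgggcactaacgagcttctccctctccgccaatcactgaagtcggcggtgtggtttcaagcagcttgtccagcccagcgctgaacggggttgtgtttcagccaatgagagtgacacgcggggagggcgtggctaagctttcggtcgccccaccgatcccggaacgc
Cxcl10, chr5:92348840-92349139, minus strand: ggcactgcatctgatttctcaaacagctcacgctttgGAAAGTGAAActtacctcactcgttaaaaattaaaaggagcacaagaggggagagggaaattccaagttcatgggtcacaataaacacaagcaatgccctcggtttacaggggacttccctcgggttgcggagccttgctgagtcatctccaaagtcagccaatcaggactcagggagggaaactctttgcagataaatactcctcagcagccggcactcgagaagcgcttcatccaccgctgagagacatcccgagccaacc

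In Ifit3 the 2 matches began 156 and 122 bases before the start, in Stat2 222 bases before and in Cxcl10 213 bases before. A promoter entry was matched for 63 of the 86 agreeing higher genes, and 8 of the 63 (12.7%) held a match on either strand. Matches were in 4 of 47 (8.51%) for the agreeing lower genes, in 11 of 21 (52.4%) for the interferon response list, in 409 of 10250 (3.99%) for all tested genes with an entry, and in 3.44% of all 32851 windows. Without the genes on the interferon response list, 5 of 57 (8.77%) of the agreeing higher genes held one: Gbp5, Eif2ak2, Sec61a2, Zfp420 and D17H6S56E-5. Wls itself was among the 4 lower genes with a match, and Oasl2 had none in this window. Of the agreeing interferon response genes, Ifit3, Stat2 and Cxcl10 alone held a match. Usp18, Ifit2 and Xaf1 had no match or no promoter entry. A match describes the letters only.

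**Figure D2:**
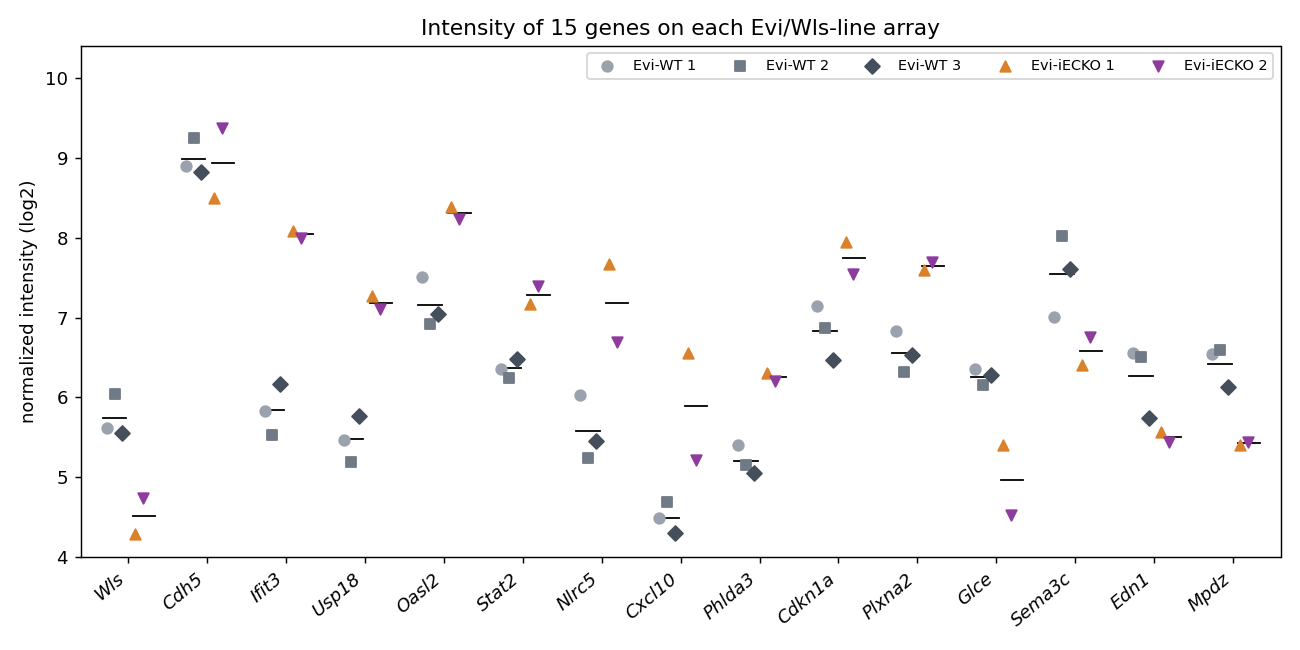
Normalized log2 intensity of 15 genes on each of the 5 arrays, with 3 Evi-WT arrays in grey, Evi-iECKO 1 in orange and Evi-iECKO 2 in purple, and short bars for group means. All genes drawn but Cdh5 are agreeing shifts, so the separation of the groups follows from the choice of genes. The Evi-iECKO arrays lie close to each other for Ifit3 and Usp18 and farther apart for Nlrc5, Cxcl10 and Glce.

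The p53 target list held the next agreeing genes. Phlda3, a p53-induced inhibitor of Akt signalling, read 5.40, 5.15 and 5.05 in Evi-WT, and 6.31 and 6.20 in Evi-iECKO. The difference was 1.05 (SE 0.21), with a second probe at 0.45. Cdkn1a, which encodes the cell cycle inhibitor p21, read 7.14, 6.87 and 6.47 against 7.95 and 7.55, a difference of 0.92 (SE 0.25), and its second probe gave 0.85. Both genes were above all controls on both deleted arrays. Rps27l met the fold on Evi-iECKO 2 alone and Sesn2 on Evi-iECKO 1 alone, at differences of 0.62 and 0.71. Over the list 14 of 21 measured genes (66.7%) had a positive difference, beside 51.7% of all genes, and the median was 0.10, with 0.04 without Evi-WT 2 and 0.30 without Evi-iECKO 2. At an unadjusted p below 0.05, 5 of the 21 were higher (23.8%), beside 2.61% of all genes, and none lower. The p53 regulator Mdm2 differed by -0.23. S phase genes had a positive difference for 15 of 19 (median 0.22, or 0.06 without Evi-WT 3), with none agreeing, and the list's mean on Evi-WT 1 (0.25) was as high as on the deleted arrays (0.21 and 0.23).

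The other agreeing higher genes named by p shared no list. Plxna2, a semaphorin co-receptor, read 6.83, 6.31 and 6.53 in Evi-WT, and 7.59 and 7.69 in Evi-iECKO, a difference of 1.08 (SE 0.22) with deleted arrays nearly equal. Tprn, which encodes the actin-bundle protein taperin, differed by 1.13 (SE 0.23), with 5.0 to 5.50 in Evi-WT against 6.19 and 6.43. Rad9a, a subunit of the DNA damage checkpoint clamp, differed by 1.09 (SE 0.23), but its 2 other detected probes differed by -0.09 and 0.11. Gfer, a sulfhydryl oxidase of mitochondrial protein import, read 4.95 to 5.26 against 6.58 and 5.83, a difference of 1.14 (SE 0.26). Cstf1, a subunit of the mRNA 3′ end cleavage complex, Sec61a2, a subunit of the protein translocation channel, and Slc25a45, a mitochondrial carrier, differed by 0.94, 0.88 and 1.06. Over all 86 genes the difference ranged from 0.60 to 2.20 with a median of 0.80, 12 were at least 2-fold from the Evi-WT mean on each array, and 3 were not detected on any Evi-WT array.

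Among the lower genes, enzymes of heparan sulphate, the cell-surface sugar chain that binds Wnts and other ligands, made up 2 of the 70 (2 of the 21 measured genes of that list, 9.52%, beside 0.497% of all genes). Glce, the epimerase that converts glucuronic to iduronic acid in the chain, read 6.36, 6.15 and 6.28 in Evi-WT, and 5.40 and 4.53 in Evi-iECKO. The controls were tight and both deleted arrays lay below them, Evi-iECKO 2 by more, for a difference of -1.29 (SE 0.26). A second detected Glce probe went the other way, at 0.25. Ndst1, an enzyme that begins sulphation of the chain, read 5.52, 4.96 and 5.68 against 4.64 and 4.80, a difference of -0.67 (SE 0.25), while its second probe differed by 0.05. The list as a whole had 14 of 21 measured genes positive and a median of 0.05.

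Further lower genes were members of single lists. Sema3c, a secreted semaphorin and marker of general capillary cells, read 7.01, 8.02 and 7.61 in Evi-WT, and 6.41 and 6.75 in Evi-iECKO. The difference was -0.97 (SE 0.29), whereas a second probe gave 0.37. The semaphorin and plexin list had 9 positive and 9 negative differences (median -0.01), with Sema3c agreeing lower and Plxna2 agreeing higher. Mpdz, a scaffold protein of tight junctions, read 6.54, 6.60 and 6.13 against 5.40 and 5.44, with deleted arrays nearly equal (-1.0, SE 0.22). Its 4 other detected probes differed by -0.52 to 0.03. On the endothelial junction list 12 of 18 measured genes had a negative difference (66.7%, beside 48.3% of all genes), with a median of -0.08. At an unadjusted p below 0.05, 3 of the 18 were lower (16.7%), beside 2.26% of all genes. Edn1, the vasoconstrictor endothelin-1, read 6.55, 6.51 and 5.74 against 5.56 and 5.44 (-0.77, SE 0.27), while its flow and vasoactive list had 11 of 17 positive and a median of 0.09. The guidance ligand Slit2, named after its values were seen, differed by -0.78, and its 3 other detected probes by -0.94 to -0.20.

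Of the lower genes named by p, Ring1 was the one agreeing member of the Polycomb and chromatin list, which had 13 of 19 positive and a median of 0.09. Ring1, a ubiquitin ligase of a Polycomb repressive complex, read 5.10, 5.17 and 5.15 in Evi-WT, and 4.15 and 4.24 in Evi-iECKO. This probe was not detected on either deleted array, so its signal was at least 1.77-fold lower. A second Ring1 probe, detected on Evi-iECKO 2, differed by -0.45, which is less than that bound. Smcx, a former symbol of the X-linked histone demethylase Kdm5c, read 6.10, 6.06 and 6.53 against 5.18 and 5.31 (-0.99, SE 0.22). Map2k6, an activating kinase of p38, differed by -0.96 (SE 0.22) and by -0.08 on a second probe. Neurl, a former symbol of the ubiquitin ligase gene Neurl1a, read 6.78, 6.82 and 6.86 against 5.11 and 6.05, so that tight controls faced uneven deleted arrays (-1.24, SE 0.27).

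The other lower genes named by p had varied roles. Lrrc8a, a subunit of volume-regulated anion channels, read 6.28, 6.11 and 6.23 in Evi-WT, and 5.38 and 4.92 in Evi-iECKO, a difference of -1.06 (SE 0.22). Dync1li2, a light intermediate chain of dynein, read 6.43, 6.37 and 7.10 against 5.38 and 5.49 (-1.20, SE 0.25). Mical3, an actin-modifying oxidoreductase, Dcaf4, a substrate receptor of a ubiquitin ligase, and Man1b, a former symbol of the Golgi mannosidase gene Man1a2, differed by -1.0, -1.0 and -0.92. The lens crystallin gene Crybb3 and Rrnad1 differed by -0.84 and -0.82. The probe used for Rnaseh1, which cuts RNA in RNA-DNA hybrids, was not detected on either deleted array, so its signal was at least 1.74-fold lower. Over the 70 genes the difference ranged from -1.29 to -0.62 with a median of -0.78, and 15 were not detected on either deleted array. Wls and Dync1li2 were the 2 that lay at least 2-fold below the Evi-WT mean on each.

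The other probes of a gene gave a second reading from the same RNA. For 28 of the agreeing higher genes 44 other detected probes existed, of which 29 also had a positive difference, with a median of 0.20. For 25 of the agreeing lower genes 43 other probes existed, of which 22 also had a negative difference, with a median of -0.02. Every other detected probe had the same direction for Usp18, Oasl2, Ifit2, Sp100, Phlda3, Cdkn1a and Wls, and the opposite direction for Glce, Sema3c and Ndst1. Over 7 alternatives to the processing or the control arrays, Ndst1 and Wfdc2 met the agreement rule under 4, and Edn1, Sema3c and Cdkn1a under 5.

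The genes of the Wnt pathway were then set beside Wls. Of 21 genes on the Wnt ligand and secretion list 10 were measured, with 5 positive and 5 negative differences and a median of 0.03. The mean over the list, Wls included, was -0.27 on Evi-iECKO 1 and 0.02 on Evi-iECKO 2, so median and mean differed in sign on the average of both arrays. Porcn read 5.33, 4.98 and 4.91 in Evi-WT, and 4.90 and 4.89 in Evi-iECKO, just below the controls (-0.18, SE 0.21). Notum differed by 0.21 (SE 0.21), and the ligands Wnt3a, Wnt4, Wnt5a, Wnt5b, Wnt6 and Wnt16 by -0.15 to 0.30. The groups overlapped for these genes except Wnt16, at 4.71 to 4.84 against 4.89 and 5.02, and Wnt4, Wnt5a and Wnt6 had 1 deleted array on each side of the Evi-WT mean. Wnt7b read 4.78, 5.53 and 5.12 against 4.17 and 4.87, and its difference of -0.62 (SE 0.28) was driven by Evi-iECKO 1. A second Wnt7b probe, at 4.87 to 5.06 against 4.58 and 4.72, lay below all controls on both deleted arrays (-0.31, SE 0.20). Ligand values lay between 4.13 and 5.53, near the lowest detected signal of 4.27 to 4.33.

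No gene of the retromer and Wls recycling list (16 measured, 6 positive, median -0.06), the Wnt receptor and R-spondin list (19, 7 positive, median -0.10) or the Wnt intracellular list (21, 9 positive, median -0.05) made an agreeing shift. The canonical Wnt target list had 9 of 16 positive and a median of 0.07, the planar polarity list 10 of 16 and 0.03, and the calcineurin-NFAT list 8 of 14 and 0.01, again with no agreeing shift. Named after their values were seen, Reck, a cofactor of Wnt7 reception, differed by -0.60 (SE 0.23) and met the fold on Evi-iECKO 2 alone. Prickle1, a planar polarity protein, read 7.89, 7.69 and 7.86 against 7.21 and 7.38, below all controls but short of the fold on Evi-iECKO 2 (-0.52, SE 0.20). It also stands on the canonical target list, where it was the lowest value and the one member at an unadjusted p below 0.05; the highest was Ascl2, at 0.34 (SE 0.23). The median of the canonical targets ran from -0.11 to 0.18 over the alternatives and arrays left out.

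**Figure D3:**
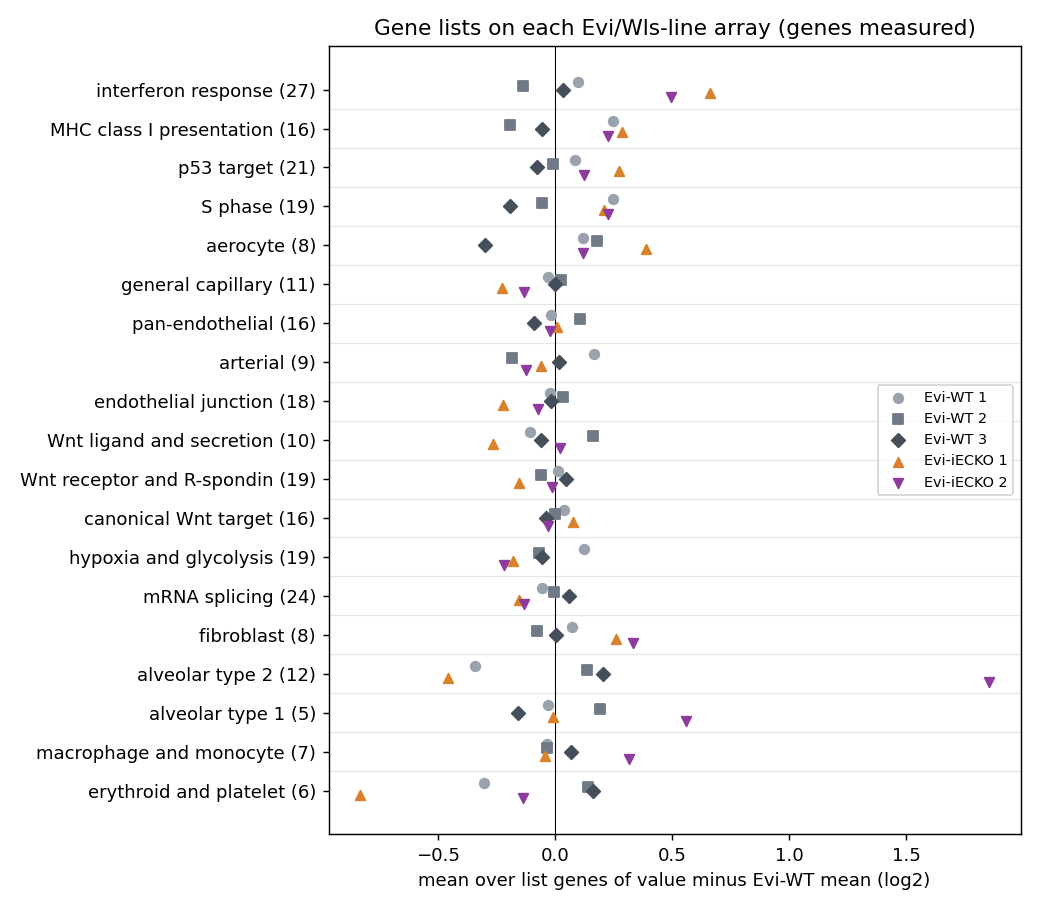
Mean over each gene list of the log2 value minus the Evi-WT mean, 1 point per array, with the number of measured genes in parentheses. Both Evi-iECKO arrays stand above the 3 Evi-WT arrays for the interferon response list (0.66 and 0.49), Evi-iECKO 2 alone stands high for alveolar type 2 markers (1.85), and Evi-iECKO 1 stands low for erythroid and platelet genes (-0.83).

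Capillary and other vessel markers showed small differences. Of 8 measured markers of aerocytes, the capillary cells specialised for gas exchange, 7 were positive with a median of 0.30 (0.10 without Evi-WT 3, 0.13 without Evi-iECKO 1 and 0.42 without Evi-iECKO 2), though the list's mean on Evi-iECKO 2 (0.12) lay within the Evi-WT range of -0.30 to 0.18. General capillary markers were negative for 8 of 11 (median -0.09, or -0.20 to -0.06 with an array left out), with means of -0.23 and -0.13 on the deleted arrays against -0.03 to 0.03 in Evi-WT. Arterial markers were negative for 8 of 9 (median -0.19, but -0.0061 without Evi-iECKO 2), with means inside the Evi-WT range. In bulk samples fewer cells of a type and less RNA per cell cannot be told apart. The hypoxia and glycolysis list was negative for 16 of 19 (median -0.15) and the mRNA splicing list for 19 of 24 (median -0.15), neither with an agreeing shift. Their means were below all controls on both deleted arrays, at -0.18 and -0.22 against -0.07 to 0.12, and at -0.15 and -0.13 against -0.06 to 0.06. At an unadjusted p below 0.05 (limma), 3 of the 19 hypoxia and glycolysis genes were lower (15.8%, beside 2.26% of all genes) and none of the splicing genes.

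Shifts driven by 1 array were together more numerous than agreeing ones. In some of these the other array also lay beyond all controls but short of the fold. Evi-iECKO 1 alone met the rule for 94 higher (0.667%) and 61 lower genes (0.433%), and Evi-iECKO 2 alone for 93 higher (0.66%) and 70 lower (0.497%).

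Markers of alveolar type 2 cells, the surfactant-secreting epithelium, were high on Evi-iECKO 2. All 12 markers of that list were measured and positive by the group means, yet the median deviation was 2.13 on Evi-iECKO 2 and -0.26 on Evi-iECKO 1, and 8 of the 12 were driven by Evi-iECKO 2. Sftpd, a surfactant protein, read 4.68, 5.32 and 6.28 in Evi-WT, and 4.45 and 8.03 in Evi-iECKO. Napsa, a protease that processes surfactant protein B, read 4.89, 4.88 and 5.30 against 4.21 and 7.77. The lung chemokine Cxcl15, the lysozyme gene Lyz1 and Dram1 followed the same pattern, at 7.80, 9.32 and 8.42 on Evi-iECKO 2 against 4.18, 5.41 and 4.28 on Evi-iECKO 1. The Evi-WT arrays also differed in this list, with means of -0.34, 0.14 and 0.20. The secreted epithelial protein gene Wfdc2, an agreeing shift, was likewise highest on Evi-iECKO 2, at 5.48 to 6.41 in Evi-WT against 6.47 and 8.36. Igf2, an imprinted fetal growth factor, was at 8.42 on Evi-iECKO 2 against 4.74 to 5.78 on the other 4 arrays.

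The alveolar type 2 mean was -0.46 on Evi-iECKO 1 and 1.85 on Evi-iECKO 2, where the interferon response mean was 0.66 and 0.49. The part of the epithelial values in the agreeing shifts was not tested. Fibroblast markers were positive for all 8 measured, with means of 0.26 and 0.33 on the deleted arrays and -0.08 to 0.07 in Evi-WT. Macrophage and monocyte markers had means of -0.04 and 0.32 against -0.04 to 0.07. Alveolar type 1 markers had means of -0.01 and 0.56 against -0.16 to 0.19.

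The fold was met toward lower values on Evi-iECKO 2 but not on Evi-iECKO 1 for Znhit6, a factor of small nucleolar ribonucleoprotein assembly (6.29 to 6.56 in Evi-WT, then 6.08 and 4.77 on the deleted arrays), and for the plasma membrane calcium pump Atp2b1 (5.29 to 6.34, then 5.46 and 4.37). Fbxl6, Vasn, Dlg5 and Safb followed, with 4.28, 7.03, 6.73 and 6.75 on Evi-iECKO 2 against 5.82, 8.10, 7.61 and 7.91 on Evi-iECKO 1. For Znhit6 and Dlg5 the value on Evi-iECKO 1 was also below all 3 controls.

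Erythroid genes were low on Evi-iECKO 1. The globin gene Hba-a1 read 9.58, 9.89 and 10.35 in Evi-WT, and 8.06 and 10.06 in Evi-iECKO. The 6 measured erythroid and platelet genes were all negative, with a median deviation of -0.69 on Evi-iECKO 1 and -0.07 on Evi-iECKO 2. Alas2, the first enzyme of erythroid haem synthesis, was the one that also met the agreement rule, at 5.0, 5.64 and 5.81 against 4.61 and 4.75 (-0.80, SE 0.26). The neurotrophin receptor gene Ntrk2 and the kinase gene Lmtk2 were lower on Evi-iECKO 1 alone (4.77 and 5.38, against 6.08 and 7.04 on Evi-iECKO 2). H2aj, Gstt2 and Rab5b were below all controls on both arrays but met the fold on Evi-iECKO 1, at 5.33, 4.91 and 4.80, and not on Evi-iECKO 2, at 6.53, 5.71 and 5.65.

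The higher genes driven by Evi-iECKO 1 included more interferon-induced ones. Trim30a, an interferon-induced member of the tripartite motif family, read 6.12, 5.86 and 5.77 in Evi-WT, and 7.44 and 6.31 in Evi-iECKO, so that Evi-iECKO 2 was also above all controls. Named after their values were seen, Gbp7, Gvin1, Rnf213, Irgm2 and the DNA sensor gene Cgas deviated by 1.08 to 1.37 on Evi-iECKO 1 and by 0.17 to 0.61 on Evi-iECKO 2. The microtubule-binding cell cycle gene Gtse1 and the kinase gene Nuak2 read 7.77 and 8.19 on Evi-iECKO 1 against 6.24 and 6.43 on Evi-iECKO 2. The sialidase gene Neu1 (6.19 against 5.06), Zfp92 and Eef1aknmt completed the set named by size. Gtse1 and Neu1 were above all controls on Evi-iECKO 2 too. Of the 2 other detected Gtse1 probes, differing by 0.52 and 0.34, the first read 4.80 and 4.99 on the deleted arrays against 4.17 to 4.50 in Evi-WT.

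The Rspo3 line, with its own controls, gave a reading of the agreeing genes that the rule had not used. Differences in that line are Rspo3-iECKO minus Rspo3-WT after normalization of all 10 arrays together. Of the 86 agreeing higher genes 43 (50%) were also higher there, beside 48.4% of all genes, and of the 70 lower genes 40 (57.1%) were also lower, beside 51.6% of all genes. The lower genes' median difference in the Rspo3 line was -0.03. The 7 agreeing interferon response genes were all higher there, and the other 79 were higher in 36 with a median of -0.03. Because the interferon response list was chosen with earlier results of these data known, its direction in the Rspo3 line is not independent evidence either.

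Usp18 differed by 1.51 (SE 0.36), Oasl2 by 1.34 (SE 0.25), Ifit3 by 1.14 (SE 0.40) and Stat2 by 0.86 (SE 0.23) in the Rspo3 line. Nlrc5 and Sp100 differed by 1.22 and 1.39. Over the whole interferon response list 25 of 27 genes were positive with a median of 0.45, beside 0.48 in the Evi/Wls line on the same normalization. Cxcl10, Xaf1 and Ifit2 differed by 0.24, 0.35 and 0.47. The p53 targets Phlda3 and Cdkn1a differed by 0.23 and 0.50. Wls differed by -0.31 (SE 0.28), Glce by 0.31, Sema3c by 0.02, Plxna2 by 0.17 and Gfer by -0.39. Ring1 was higher in the Rspo3 line, by 0.82 (SE 0.20).

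No gene (0%) passed the test of the difference between the 2 lines' effects (limma interaction over 10 arrays, smallest adjusted p 0.147, for Ring1). At an unadjusted p below 0.05, 853 genes differed between the lines (6.06%), 480 with the more positive effect in the Evi/Wls line and 373 in the Rspo3 line. On this test no agreeing shift can be called particular to the Evi/Wls line.

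**Figure D4:**
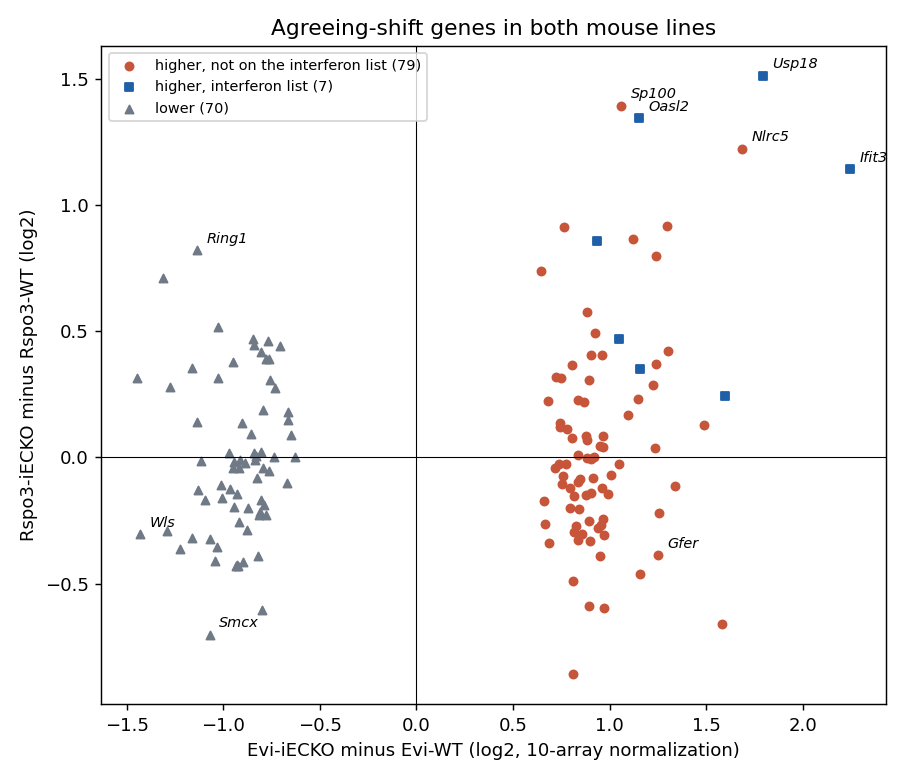
Log2 difference of each agreeing gene in the Evi/Wls line (horizontal) and in the Rspo3 line (vertical), both after normalization of 10 arrays together; blue squares are the 7 interferon response genes, red circles the other 79 higher genes and grey triangles the 70 lower genes. The horizontal separation follows from the choice of genes. The interferon response list was chosen with earlier results of these data known. The blue squares all lie above 0 on the vertical axis, while red circles and grey triangles lie on both sides of it.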

How the data were processed

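RNA of sorted lung endothelial cells was isolated, amplified and biotin-labelled for Illumina beadchips, per the labels' protocols. Per the file headers, the authors deposited unnormalized mean bead intensity and a detection p-value for each probe. A second deposited table holds intensity normalized by an unstated method. The deposited intensities of the 5 arrays were background-corrected from the detection p-values, quantile normalized and put on the log2 scale with limma's neqc (R 4.3.3, limma 3.58.1, offset 16). Of 46237 probes, 35784 had 1 gene symbol and 10453 none. Symbols were looked up by Entrez ID for 28620 probes and by accession for 2637, and the given symbol was kept for 4527. The symbol changed for 937 probes. Detected means a detection p below 0.05. How the authors made the detection p-values is not stated. They reach down to 3.2e-87, whereas neqc reads detection p-values as ranks among negative controls; an alternative without background correction does not use them for the values.

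Groups were compared with lmFit and eBayes and Benjamini-Hochberg adjustment over 14084 genes. The scripts were tested on simulated data. The effects of both lines were compared as an interaction over all 10 arrays normalized together. Bounds written "at least" set the probe used against the lowest detected signal, with no allowance for error. Alternatives covered background correction, normalization, the filter, the probe rule, the fold, the spread, the replicate block and each array left out. The members and gene lists were chosen with earlier results of these data known. Named genes are Wls, Cdh5, sex-linked genes, up to 15 agreeing shifts per direction by smallest p among genes with an informative symbol that were detected on every array of the higher group, up to 6 agreeing members per list, all Wnt ligand and secretion genes, and the 6 largest shifts driven by each array and direction.

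The labels do not say whether replicate numbers pair the samples. Deviations from the group means correlated at 0.14 for number 1 and -0.15 for number 2. With 2 Evi-iECKO arrays their deviations mirror each other, so the 2 values are not separate checks and cannot decide on pairing.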

Additional observations from a re-analysis of the deposited data

How the results depend on the processing

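Ifit3 was the 1 gene past the adjusted threshold, and the count was 0 without background correction (smallest adjusted p by limma 0.0913), with the authors' normalized values (0.130), without a filter (0.645), with all 10 arrays (0.200) and with Xist level as a factor (0.109, chosen after seeing the data). It ranged from 0 to 31 over arrays left out. The agreeing shifts numbered 4 higher and 0 lower without background correction, 7 and 2 with the authors' normalized values, 138 and 117 with all 10 arrays, and 12 and 2 at a 2-fold minimum. With an Evi-WT array left out they ranged from 108 to 149 higher and from 87 to 108 lower, with 67 to 74 of the 86 and 46 to 59 of the 70 among them; with an Evi-iECKO array left out agreement cannot be computed. Under median scaling, no filter, the mean of all probes, all 10 arrays and each Evi-WT array left out, 33 of the 86 and 21 of the 70 met the rule every time. Of 50 list medians, 46 changed sign or moved by over 1.5 times with an array left out, the exceptions being interferon response, fibroblast, hypoxia and glycolysis, and mRNA splicing. Without background correction the folds themselves were smaller (Ifit3 1.31, against 2.20). Shifts driven by 1 array numbered 15 without background correction, 24 with the authors' normalized values and 493 with all 10 arrays. Wls was lower under every alternative run, at -1.45 to -0.38.

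With the replicate block 1 gene passed (Ifit3, limma, adjusted p 0.0120) and Wls differed by -1.32. No call changed, and whether the numbers pair the samples is not known. Of 1118 recomputed values for 72 named genes, 1072 kept direction and side of the threshold. The sign changed for 17 of the genes. With an array left out, both signs occurred for Cdh5 (-0.49 to 0.38), Wnt4 (-0.028 to 0.32), Wnt5a (-0.30 to 0.70), Wnt6 (-0.21 to 0.031), Xist (-1.33 to 2.61) and Eif2s3y (-1.62 to 1.45). The same held for 11 genes whose shift was driven by 1 array, by the way they were chosen: Nuak2 (-0.088 to 1.66), Zfp92 (-0.13 to 1.57), Eef1aknmt (-0.24 to 1.49), Hba-a1 (-1.88 to 0.12), Lmtk2 (-1.55 to 0.11), Igf2 (-0.21 to 3.28), Cxcl15 (-0.83 to 2.80), Napsa (-0.82 to 2.75), Dram1 (-1.39 to 2.75), Lyz1 (-1.20 to 2.72) and Fbxl6 (-1.42 to 0.11). Eif2s3y also changed sign to 0.024 without background correction, 0.043 with the authors' values, 0.030 with array weights, 0.25 with the block and 0.35 with Xist as a factor. None of the values of changed sign passed the threshold, and the cause was not tested. With 1 Evi-iECKO array left out, where the lone array is assumed to vary like the other group, 12 named genes beside Ifit3 passed (limma). They were Usp18, Nlrc5, Cxcl10, Glce and Neurl among agreeing genes (adjusted p 0.0112 to 0.0342), and Napsa, Igf2, Dram1, Lyz1, Znhit6, Cxcl15 and Gtse1 among those driven by the array that stayed (0.000972 to 0.0342).

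With 2 arrays against 3, genes near the lowest detected signal, most Wnt ligands among them, were measured with little range above background.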

Other observations

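Gene groups not described above showed small differences. Of 18 measured basement membrane genes 6 had a positive difference, with a median of -0.16 and no agreeing shift. The laminin chain gene Lama5 differed by -0.43 and Lamc1 by -0.32, while Nid1, a linker of laminin and collagen IV, was at 0.64. The list's mean was -0.09 on each deleted array and -0.08 to 0.10 in Evi-WT. Venous markers were positive for 5 of 8 (median 0.19), with means inside or just above the Evi-WT range. Mitosis genes were positive for 11 of 17 (median 0.10), with means of 0.19 and -0.04 on the deleted arrays.

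Notch (8 of 18 positive), VEGF and sprouting (7 of 16), BMP and TGF-beta (10 of 18) and Eph and ephrin genes (6 of 14) had medians of -0.01, -0.06, 0.03 and -0.06 and no agreeing shift. For BMP and TGF-beta genes the median deviation was -0.18 on Evi-iECKO 1 and 0.27 on Evi-iECKO 2. The 2 arrays deviated in opposite directions for 14 of those 18 (77.8%), beside 47.9% of all genes. Cholesterol synthesis genes had means of -0.21 on Evi-iECKO 1 and 0.31 on Evi-iECKO 2, on opposite sides of the Evi-WT mean. Ribosomal protein, respiratory chain, proteasome and unfolded protein response genes had medians of -0.01, -0.01, -0.02 and 0.03.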
